A study of Rattus norvegicus with 12 samples.

Results

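The comparison described here sets rat Schwann cells grown with monocyte-derived macrophages (MDM) against the same cells grown alone. It uses 6 of the 12 libraries of the series, 3 from each group, chosen by their sample labels, and 12360 of 30957 annotated genes had enough counts to be tested. Messenger RNA was sequenced from cells alone and from co-cultures whose source label names MDM, and the treatment label of both groups reads untreated, with no agent, dose or time. Libraries of the cells alone are titled Rsc96 and headed HSC96 in the count table, and those of the MDM co-culture are headed PBMC. Rsc96 is read as RSC96, an immortalised Schwann line from rat nerve, so each group is a model built on 1 line. All groups share that cell type and the organism rat, and no source used here gives the species of the macrophages or says whether a membrane or a sort kept them out of the RNA. The remaining 6 libraries, co-cultures with tumour-associated macrophages (TAM) induced by the pancreatic cancer lines BxPC-3 (BxTAM) and MIA PaCa-2 (MiaTAM), served to estimate the spread and for a contrast of MDM with TAM co-culture. Whether the 3 libraries of each group are separate cultures is not stated, so p-values measure the spread between samples, which may be technical.

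Schwann cells wrap the axons of peripheral nerve. After injury they leave the resting state, divide, secrete matrix and trophic factors, and call in macrophages, which clear debris and send growth factors and cytokines back to them. Pancreatic tumours often invade nerves, and Schwann cells and macrophages meet there too. Cell division, protein synthesis and protein secretion draw on separate sets of genes, and these sets are followed below before the signalling, immune and nerve genes.

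Levels are CPM, a library's counts scaled to a common total and adjusted by trimmed mean of M values (TMM), given for each library or as mean ± SD of 3 libraries. Changes are log2 fold changes of MDM co-culture minus cells alone ± standard error, with n = 3 a group. A gene was called when its p from edgeR's quasi-likelihood test, adjusted by the Benjamini-Hochberg method over all genes tested, was under 0.05. The totals of the 6 libraries ran from 17408450 to 21506669 counts, and the first principal component of these 6 held 78.8% of their variance and placed the groups apart. A gene said to rise, fall or change, or to go from a level to another, was called, with an adjusted p of at most 0.00218. Of the genes named, Fkbp2, Fth1, Impdh1, Lama3, Pmp22 and Sf3b1 were not called when a change of at least 1.2-fold was tested for. In bulk RNA, fewer cells of a type and less RNA per cell cannot be told apart.

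Several defining markers of the labelled cell type are listed at or near 0. Sox10, the master factor of the Schwann lineage, is listed at 0 in the 6 libraries and has 1 count over the 12 libraries of the table, and Cdh19, a cadherin of its precursors, is listed at 0 in all 12. Genes that every cell uses, among them Rps6, Rpl8, Rplp2, Hsp90aa1 and Myh9, are also listed at 0 in all 12 libraries, so that a 0 can mean that reads were not assigned to a gene and does not show that it was silent. The label could therefore not be checked by these markers. S100b had 12 counts over the cells alone and 8 over the co-culture. Ncam1, Pmp22, Dhh and Erbb3 were expressed, and the summed level of the Schwann markers was 215 to 225 CPM in cells alone and 296 to 325 CPM in co-culture. The larger share of that difference was Ncam1 alone. Of 7 Schwann markers tested 4 rose and 2 fell, Pmp22 among the falls. The name Schwann cells is kept here as the labels give it. Of 26 macrophage and monocyte markers, Ptprc, Tyrobp, C1qa and Marco are listed at 0 in the 6 libraries, to which the same limit applies, and 5 reached a mean of 1 CPM in each group. Their sum was 28.5 to 31.6 CPM in cells alone and 62.4 to 67.6 CPM in co-culture, and the larger share of the difference was Itgax, the integrin CD11c, at 18.3, 16.9 and 16.3 CPM in cells alone and 48.4, 46.7 and 43.4 CPM in MDM co-culture. Of 7 markers tested 5 rose, among them the Csf1 receptor Csf1r, from 3.34 ± 0.203 to 5.68 ± 0.324 CPM. The other markers had too few counts to test or none. Among them Spi1 had 12 counts over the cells alone and 11 over the co-culture, Fcer1g 10 and 10 and Fcgr3a 9 and 9. Cybb had 8 and 4, Lyz2 18 and 23 and C1qc 0 and 7. The sum of macrophage and monocyte markers moved with each group of genes that rose below. Its part in them was not tested. Lymphocyte markers summed to at most 1.27 CPM in any of these libraries, and endothelial markers to 64.2 to 67.7 CPM alone and 63.5 to 63.7 CPM in co-culture. Fibroblast and pericyte markers, with Dcn, Lum, Fap and Col1a2 listed at 0, summed to 478 to 494 and 576 to 607 CPM, and epithelial markers, with Epcam listed at 0, to 38.1 to 39.6 and 41.1 to 43.6 CPM.

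Most genes tested differed in level between MDM co-culture and cells alone, mostly by small amounts. Of the genes tested, 8047 were called (65.1%), of which 3952 were higher (32.0%) and 4095 lower (33.1%) in co-culture. The median size of a called change was 1.36-fold, and 5261 of the called genes moved by less than 1.5-fold. At 2-fold or more, 635 genes were higher (5.14%) and 411 lower (3.33%), and at 4-fold or more these numbers were 116 and 31. By limma on log2(FPKM + 1), where the added 1 FPKM shrinks changes of low genes, 137 were higher and 255 lower at 2-fold or more, and with upper-quartile scaling 4579 genes were called higher and 3497 lower. The libraries of both groups did not overlap for 8515 of 12360 genes tested, of which 7724 were called. Lack of overlap, where given for a gene below, was thus the usual case. Genes called higher at 2-fold or more made up 1.40% of the counts in cells alone and 3.86% in co-culture, and those called lower 2.87% and 1.16%. Of the 20% of tested genes with the lowest FPKM, 900 rose and 373 fell with a median change of 0.23, while the median of each of the other 4 level classes was between -0.05 and 0.00. The median over all genes tested was -0.01, and each count of a gene list below is to be read against these shares.

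**Figure D1:**
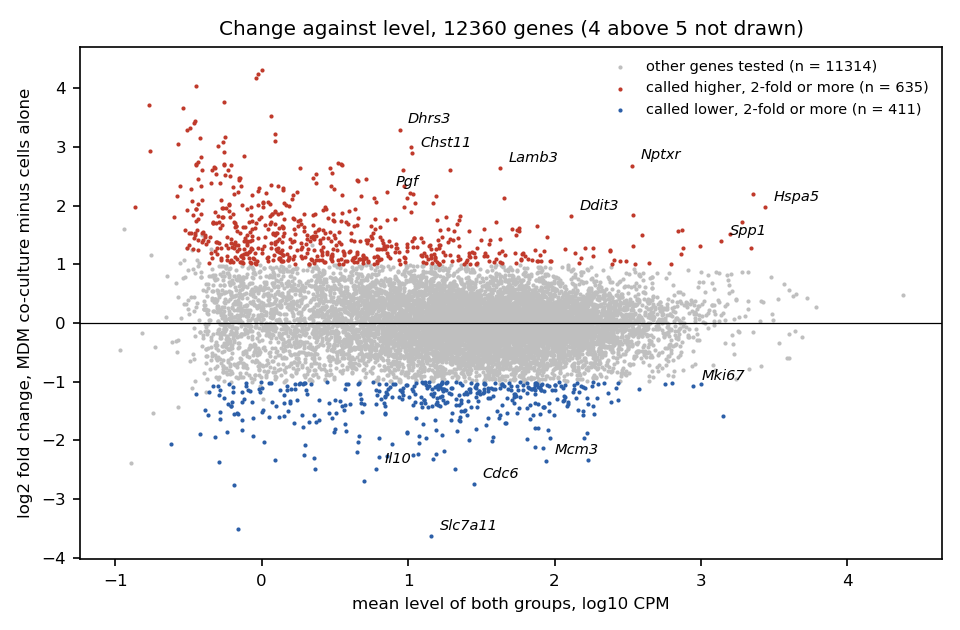
Log2 fold change of MDM co-culture minus cells alone (vertical axis) against the mean level of both groups in log10 CPM (horizontal axis) for the genes tested. Each point is a gene, red where called higher and blue where called lower at 2-fold or more; 635 genes are red and 411 blue, and many of the red ones lie at low levels.

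Some further genes were taken from the 25 largest rises and 25 largest falls among called genes with a mean of at least 1 CPM in a group and no overlap of the groups, which the choice itself required. Among rises, Lrrc75b, a leucine-rich repeat gene, stood at 2.39, 2.19 and 2.396 CPM in cells alone and 18.5, 17.3 and 19.98 CPM in MDM co-culture (3.00 ± 0.12), and Olfm2, a secreted olfactomedin, went from 0.946 ± 0.0859 to 6.16 ± 0.167 CPM. Csdc2, an RNA-binding protein with a cold shock domain, went from 2.58 ± 0.241 to 15.98 ± 1.42 CPM, and Myo7a, an unconventional myosin, from 5.44 ± 0.336 to 33.2 ± 1.74 CPM. Among falls, Ns5atp9, whose product binds the sliding clamp Pcna, stood at 27.1, 20.9 and 25.7 CPM in cells alone and 5.08, 5.395 and 4.29 CPM in MDM co-culture (-2.32 ± 0.11). Gen1, which cuts recombination junctions, went from 19.4 ± 1.096 to 4.06 ± 0.706 CPM and Dscc1, of an alternative clamp loader, from 25.5 ± 0.573 to 5.41 ± 1.03 CPM. Slc17a6, the vesicular glutamate transporter, and Il19, a cytokine of the interleukin-10 family, were low and fell, from 2.07 ± 0.141 to 0.403 ± 0.151 CPM and from 3.81 ± 0.264 to 0.771 ± 0.129 CPM.

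Genes of DNA replication fell as a block. Eukaryotic cells load a ring-shaped helicase, built from the MCM proteins, onto replication origins in G1 with the help of the origin recognition complex, Cdc6 and Cdt1. Of 25 tested genes of origin licensing and the helicase, 0 rose and 25 fell, 15 of them by 2-fold or more, with a median change of -1.16. Mcm7, a helicase subunit, stood at 137, 139 and 133 CPM in cells alone and 28.7, 30.95 and 33.3 CPM in MDM co-culture. The groups did not overlap, and the 3 libraries of each lay close together. The change was -2.13 ± 0.07 (edgeR, adjusted p = 1.19e-15). Cdc6, the helicase loader, stood at 47.6, 51.1 and 48.5 CPM in cells alone and 7.497, 6.93 and 7.56 CPM in MDM co-culture, the largest fall in the list at -2.74 ± 0.08. Orc1, a subunit of the origin recognition complex, changed by -2.48 ± 0.09, and Mcm10, which helps to activate the loaded helicase, by -2.01 ± 0.07.

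The promoters of such genes often carry E2F sites, and the windows of the list's members were searched for the letters TTTNNCGC on both strands. The windows run from 250 bases before to 50 after the gene's start in RefSeq, build GRCr8, and 8062 of 12360 tested genes could be matched by symbol to exactly 1 window. Of 18 matched genes of the list, 11 held a match (61.1%), against 8.83% of tested genes, 5.32% of all 24206 genes with 1 window, 6.19% of genes called higher at 2-fold or more and 17.2% of those called lower at 2-fold or more. A match describes the letters and is not evidence of binding. The list was chosen by function, so its share is a property of its promoters and says nothing of its change in co-culture. The same holds for each list and motif below. Members of this list are also among the genes called lower, so these sets overlap. Mcm7 and Mcm6 are the members with the largest falls that hold a match in the 170 bases before the start, and these bases are shown with the matched letters in capitals. Mcm7 holds 1 match in this stretch, which begins 52 bases before the start, and another at 233 bases outside it, and Mcm6 holds a pair that overlap on opposite strands, beginning 139 and 135 bases before the start.
Mcm7 (chr12:22163179-22163348, minus strand): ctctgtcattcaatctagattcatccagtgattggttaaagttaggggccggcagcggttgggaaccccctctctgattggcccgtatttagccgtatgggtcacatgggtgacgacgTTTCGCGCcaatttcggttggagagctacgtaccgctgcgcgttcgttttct
Mcm6 (chr13:42404353-42404522, minus strand): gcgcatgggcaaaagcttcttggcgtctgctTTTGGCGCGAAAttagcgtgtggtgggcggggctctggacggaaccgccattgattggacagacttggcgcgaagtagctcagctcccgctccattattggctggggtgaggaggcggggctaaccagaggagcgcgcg

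Behind the origin, the moving fork followed the same direction. Of 29 tested genes of the fork and its polymerases, 0 rose and 29 fell, 19 of them by 2-fold or more (median -1.10). Pole, the catalytic subunit of the leading-strand polymerase, went from 104 ± 10.2 to 26.3 ± 1.1003 CPM (-1.98 ± 0.07). Pcna, the sliding clamp, stood at 114, 114 and 106 CPM in cells alone and 42.9, 43.2 and 43.1 CPM in MDM co-culture, with no overlap between the groups. Dnmt1, which copies DNA methylation onto the new strand, and Uhrf1, which guides it there, changed by -1.11 ± 0.04 and -1.05 ± 0.05. Chaf1a, of the chaperone that places histones on new DNA, fell 2.96-fold.

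The supply of nucleotides and the repair of forks also fell. Of 24 tested genes of nucleotide synthesis, 2 rose and 22 fell (median -0.76). Tk1, the thymidine kinase of S phase, stood at 118, 123 and 117 CPM in cells alone and 24.9, 28.6 and 29.4 CPM in MDM co-culture, and its change was -2.10 ± 0.08. Rrm2, the regulated subunit of ribonucleotide reductase, fell 3.97-fold and Dhodh, the mitochondrial enzyme of pyrimidine synthesis, 3.06-fold. The member that rose the most was Impdh1, an enzyme of guanine nucleotide synthesis, at only 0.23 ± 0.06. In homologous recombination and the Fanconi pathway, which rescue broken or stalled forks, 0 of 23 tested members rose and 21 fell, 15 by 2-fold or more (median -1.11). Exo1, a nuclease that resects broken ends, stood at 23.8, 24.5 and 23.7 CPM in cells alone and 7.56, 7.16 and 5.93 CPM in MDM co-culture (-1.81 ± 0.09), with no overlap between the groups.

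Genes of mitosis also fell, with smaller median falls than the origin, fork and recombination lists. Of 29 tested genes of mitotic entry, spindle and cytokinesis, 0 rose and 27 fell, but only 2 by 2-fold or more (median -0.75), and of 25 kinetochore and checkpoint genes 0 rose and 25 fell (median -0.93). Ccnb1, the cyclin that drives mitotic entry, stood at 135, 144 and 141 CPM in cells alone and 77.3, 76.7 and 77.7 CPM in MDM co-culture (-0.86 ± 0.04), and Cdk1, its kinase, changed by -0.87 ± 0.04. Ndc80, which ties kinetochores to microtubules, went from 101 ± 0.856 to 49.3 ± 2.73 CPM. Mki67, the Ki-67 antigen, went from 1193 ± 53.4 to 569 ± 24.95 CPM. The regulators above these programmes divided. E2f1, the activating E2F factor, fell 3.25-fold and its dimer partner Tfdp1 2.05-fold, while Rb1, the retinoblastoma protein that holds E2F back, rose 1.61-fold and the cyclin-dependent kinase inhibitor Cdkn1a went from 211 ± 3.08 to 348 ± 18.02 CPM (0.72 ± 0.04). Over the 24 tested regulators of G1, 8 rose and 14 fell.

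Genes switched on in G2 and mitosis often hold a cell cycle homology region (CHR), searched as TTTGAA on both strands. Of 23 matched genes of mitotic entry, spindle and cytokinesis, 17 held it (73.9%), against 11.6% of tested genes, 18.1% of all promoters, 25.3% of genes called lower and 8.76% of genes called higher at 2-fold or more. That share, too, describes the promoters of the list and not its change. Top2a, the topoisomerase that untangles sister chromatids (-0.93 ± 0.04), and Smc2, a condensin subunit (-0.91 ± 0.05), are shown as the members with the largest falls and a match in this stretch. The match in Top2a lies 22 bases before the start and that in Smc2 103 bases before it, both on the opposite strand, so that the capitals read as the reverse complement.
Top2a (chr10:84473094-84473263, minus strand): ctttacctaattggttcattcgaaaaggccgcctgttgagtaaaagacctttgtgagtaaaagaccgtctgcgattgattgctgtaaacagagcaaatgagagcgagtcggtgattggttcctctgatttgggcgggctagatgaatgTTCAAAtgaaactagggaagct
Smc2 (chr5:71602235-71602404, plus strand): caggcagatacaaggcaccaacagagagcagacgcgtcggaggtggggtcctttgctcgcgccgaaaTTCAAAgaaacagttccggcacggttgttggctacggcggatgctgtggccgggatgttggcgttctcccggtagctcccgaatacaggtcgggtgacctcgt

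**Figure D2:**
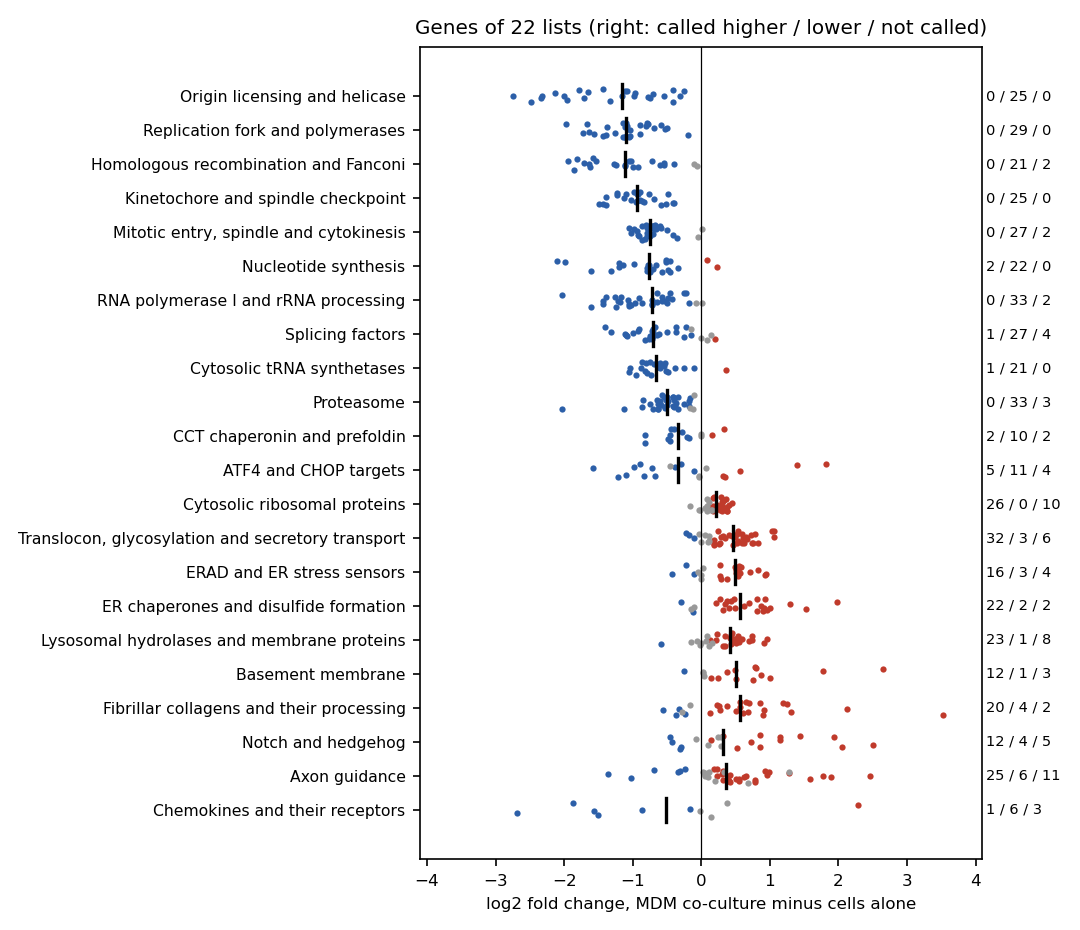
Log2 fold change of MDM co-culture minus cells alone for the tested members of 22 gene lists. Each point is a gene, red where called higher, blue where called lower and grey where not called; the black bar is the list's median, and the numbers on the right count members called higher, lower and not called. Lists of replication, division, rRNA processing and splicing lie left of 0, and those of the secretory pathway, lysosome and matrix lie right of it.

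Nucleolar and splicing genes fell alongside. Ribosomes are assembled in the nucleolus from rRNA made by RNA polymerase I. Of 35 tested genes of that polymerase and of rRNA processing, 0 rose and 33 fell, 14 of them by 2-fold or more (median -0.72). Rrp12, which helps to export new ribosomal subunits, stood at 19.04, 18.6 and 19.8 CPM in cells alone and 4.21, 4.66 and 5.04 CPM in MDM co-culture (-2.04 ± 0.10), and Polr1a, the largest subunit of the polymerase, fell 2.31-fold. The ribosomal proteins themselves did not follow. Of 36 tested genes 26 rose, 0 fell and 10 were not called, and the median was only 0.21. When a change of at least 1.2-fold was tested for, only 5 were called higher, and by limma on log2(FPKM + 1) 19. Rplp0, a stalk protein, went from 2899.8 ± 133 to 3851 ± 159.99 CPM (0.41 ± 0.04). Reads of ribosomal protein genes may be shared with pseudogenes, so single members are uncertain. Among 32 tested splicing factors 1 rose and 27 fell (median -0.70). Srsf1, a serine and arginine-rich splicing factor, stood at 385, 385 and 393 CPM in cells alone and 165, 144 and 160.1 CPM in MDM co-culture (-1.31 ± 0.05), and Hnrnpm, an RNA-binding protein of the spliceosome, fell 2.65-fold. The splicing factor that rose was Sf3b1, of the branch-site complex, at 0.21 ± 0.05. Of 30 translation factors 7 rose and 16 fell. Eif4a1, the helicase of initiation, stood at 772, 792 and 767 CPM in cells alone and 418, 418 and 419 CPM in MDM co-culture (-0.89 ± 0.04), while Eef2, the elongation factor that moves the ribosome, went from 3716 ± 134 to 5244 ± 137 CPM.

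A CACGTG E-box, the letters that MYC and its relatives read, was present in the windows of 11 of 32 matched genes of RNA polymerase I and rRNA processing (34.4%), in 9.41% of tested genes, in 17.6% of genes called lower at 2-fold or more and in 4.12% of those called higher. Myc itself stood at 74.7, 77.6 and 80.4 CPM in cells alone and 49.7, 54.01 and 47.2 CPM in MDM co-culture and fell 1.55-fold. Its antagonists Mxd4 and Mxd1, which bind the same partner Max, rose: Mxd4 stood at 6.14, 12.5 and 11.8 CPM in cells alone and 33.4, 33.4 and 37.2 CPM in MDM co-culture (1.76 ± 0.22) and Mxd1 changed by 0.67 ± 0.06. Mycl, a MYC relative, rose 2.497-fold to 10.3 ± 1.698 CPM, and over the network 6 of 10 tested genes rose and 4 fell. The E-box share is a property of the list's promoters. Whether any member of the network had a part in the fall of the nucleolar genes was not tested.

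Genes that supply amino acids to protein synthesis fell, while stress-response genes divided. Of 22 tested cytosolic tRNA synthetases, which charge tRNAs, 1 rose and 21 fell (median -0.66). Cars, the cysteine enzyme, went from 267 ± 5.87 to 129.8 ± 4.94 CPM (-1.04 ± 0.04), and Qars, the glutamine enzyme, was the member that rose, at 0.37 ± 0.04. Of 19 amino acid transporters 3 rose and 10 fell. Slc7a11, the cystine importer, stood at 27.5, 25.7 and 26.6 CPM in cells alone and 2.42, 1.76 and 2.24 CPM in MDM co-culture, and Slc7a5, the leucine importer, at 118, 124 and 116 CPM in cells alone and 34.3, 32.03 and 37.2 CPM in MDM co-culture, while Slc3a2, the heavy chain with which both pair, fell 2.21-fold. For serine, glycine and folate metabolism 2 of 19 tested genes rose and 15 fell. Shmt1, the cytosolic enzyme that moves a carbon from serine to folate, fell 4.52-fold, and Phgdh and Psat1, the opening steps of serine synthesis, changed by -1.22 ± 0.08 and -1.27 ± 0.04.

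Many of these genes are targets of ATF4, the transcription factor of the integrated stress response. Atf4 itself stood at 399.7, 402 and 401 CPM in cells alone and 225, 202 and 221 CPM in MDM co-culture (-0.89 ± 0.04), and of 20 tested targets of ATF4 and CHOP 5 rose and 11 fell. Asns, asparagine synthetase, changed by -0.84 ± 0.04, and Chac1, which degrades glutathione, by -1.57 ± 0.05. Moving the other way, Ddit3, the gene of CHOP, stood at 56.7, 57.5 and 58.1 CPM in cells alone and 206, 211 and 193 CPM in MDM co-culture, a rise of 3.54-fold with no overlap (edgeR, adjusted p = 6.65e-15). Gdf15, a secreted stress cytokine, went from 5.798 ± 0.829 to 15.3 ± 1.85 CPM. The composite letters TGATGNAA, read by C/EBP and ATF factors together, were in the windows of 6 of 18 matched targets (33.3%), against 1.69% of tested genes and 3.74% of all promoters. At 2-fold or more they were in 0.773% of genes called higher and 3.45% of those called lower, a set that includes members of the list. The share in the list describes its promoters and not its change. Chac1 and Jdp2, a basic leucine zipper factor (-1.21 ± 0.11), are shown as the members with a match in this stretch and the largest changes, which were falls. The match in Chac1 begins 167 bases before the start on the opposite strand, and that in Jdp2 16 bases before it.
Chac1 (chr3:126795961-126796130, plus strand): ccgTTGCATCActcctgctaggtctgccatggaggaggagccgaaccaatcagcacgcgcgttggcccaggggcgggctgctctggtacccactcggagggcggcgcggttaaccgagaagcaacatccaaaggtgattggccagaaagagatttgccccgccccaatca
Jdp2 (chr6:110993421-110993590, plus strand): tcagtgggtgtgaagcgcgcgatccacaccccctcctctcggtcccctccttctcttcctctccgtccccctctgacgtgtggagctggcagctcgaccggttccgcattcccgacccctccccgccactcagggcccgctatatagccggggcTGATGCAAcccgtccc

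Genes of the endoplasmic reticulum (ER) rose. The ER folds secreted proteins, and its chaperones are induced through ATF6, XBP1 and PERK when folding demand is high. Of 26 tested genes of chaperones and disulfide formation, 22 rose and 2 fell (median 0.56). Hspa5, the main ER chaperone BiP, stood at 1108, 1075 and 1133 CPM in cells alone and 4415, 4585 and 4067 CPM in MDM co-culture, the largest gain in CPM of the called genes with a rise of 1.5-fold or more (1.98 ± 0.05; edgeR, adjusted p = 1.08e-16). P4hb, a protein disulfide isomerase that is also a subunit of collagen prolyl hydroxylase, stood at 1273, 1225 and 1302 CPM in cells alone and 3114, 3207 and 2947 CPM in MDM co-culture (1.29 ± 0.04). Ero1l, which reoxidises that isomerase, rose 2.87-fold and Hyou1, a large chaperone, 1.88-fold. Fkbp2, a prolyl isomerase, was 1 of the 2 members that fell, at -0.29 ± 0.06.

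The ER stress response element (ERSE) is CCAAT and CCACG held 9 bases apart, and was searched on both strands. Of 20 matched genes of the list 6 held it, against 12 of 8062 tested genes (0.149%) and 18 of 24206 promoters (0.0744%). It was in 1 of 388 genes called higher at 2-fold or more (0.258%) and in 0 of 261 called lower. The share in the list is a property of its promoters and says nothing of its change in co-culture. Its CCAAT part alone is common, in 38.1% of tested genes, 35.6% of genes called higher and 49.4% of genes called lower at 2-fold or more, and overlaps each ERSE. Hspa5 and Hsp90b1, the ER form of HSP90 (0.87 ± 0.04), are shown as the members with the largest rises and a match in this stretch. Capitals mark CCAAT and CCACG, which begin 43 bases before the start in Hspa5, and their reverse complement, which begins 72 bases before it in Hsp90b1. A further match in Hsp90b1 begins 176 bases before the start, outside the stretch.
Hspa5 (chr3:38452846-38453015, plus strand): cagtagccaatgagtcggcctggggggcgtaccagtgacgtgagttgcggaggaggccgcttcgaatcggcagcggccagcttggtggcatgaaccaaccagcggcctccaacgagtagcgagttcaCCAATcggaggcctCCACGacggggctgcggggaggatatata
Hsp90b1 (chr7:23012294-23012463, minus strand): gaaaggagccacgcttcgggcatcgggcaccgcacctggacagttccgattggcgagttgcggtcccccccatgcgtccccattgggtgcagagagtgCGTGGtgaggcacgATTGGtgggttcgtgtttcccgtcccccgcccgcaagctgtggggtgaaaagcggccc

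The rest of the secretory route moved with the chaperones. Of 41 tested genes of the translocon, glycosylation and vesicle coats, 32 rose and 3 fell (median 0.46). Srpr, the receptor that docks ribosomes on the ER, went from 199 ± 4.64 to 416 ± 18.4 CPM (1.07 ± 0.05), and Kdelr3, which returns escaped ER proteins from the Golgi, rose 2.08-fold. Sec24a and Sec31a, coat proteins of vesicles that leave the ER, changed by 1.03 ± 0.04 and 0.74 ± 0.04. In ER-associated degradation and stress sensing 16 of 23 rose and 3 fell. Xbp1, the transcription factor of the IRE1 branch, stood at 53.8, 56.4 and 56.5 CPM in cells alone and 105, 113 and 104 CPM in MDM co-culture (0.95 ± 0.04), and Eif2ak3, the gene of the sensor PERK, changed by 0.71 ± 0.06. Creb3l1, an ER-bound factor linked to collagen secretion, rose 1.8995-fold.

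Cytosolic protein handling went the other way and lysosomal genes went up. Of 36 tested proteasome genes 0 rose and 33 fell (median -0.50). Psmc5, an ATPase of the cap that unfolds substrates, stood at 97.4, 94.6 and 94.2 CPM in cells alone and 41.6, 40.8 and 48.03 CPM in MDM co-culture (-1.13 ± 0.06), and Psmb10, a catalytic subunit of the immunoproteasome, fell 4.07-fold to 1.81 ± 0.278 CPM. Of 14 genes of the cytosolic chaperonin and prefoldin, which fold actin and tubulin, 2 rose and 10 fell, and Cct6a changed by -0.82 ± 0.04. Heat shock chaperones divided, with 5 rising and 11 falling of 24, and Hspd1, the mitochondrial HSP60, fell 1.99-fold. Of 32 lysosomal genes 23 rose and 1 fell (median 0.42). Gaa, the acid glucosidase, stood at 164, 169 and 163 CPM in cells alone and 321, 324 and 316 CPM in MDM co-culture (0.95 ± 0.04), and Mcoln1, a lysosomal calcium channel, was the member that fell, at -0.59 ± 0.06. Of 28 autophagy genes 17 rose and 2 fell. Atg13, of the initiating kinase complex, rose 2.21-fold, and Becn1, of the lipid kinase complex that acts after it, fell 1.92-fold.

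**Figure D3:**
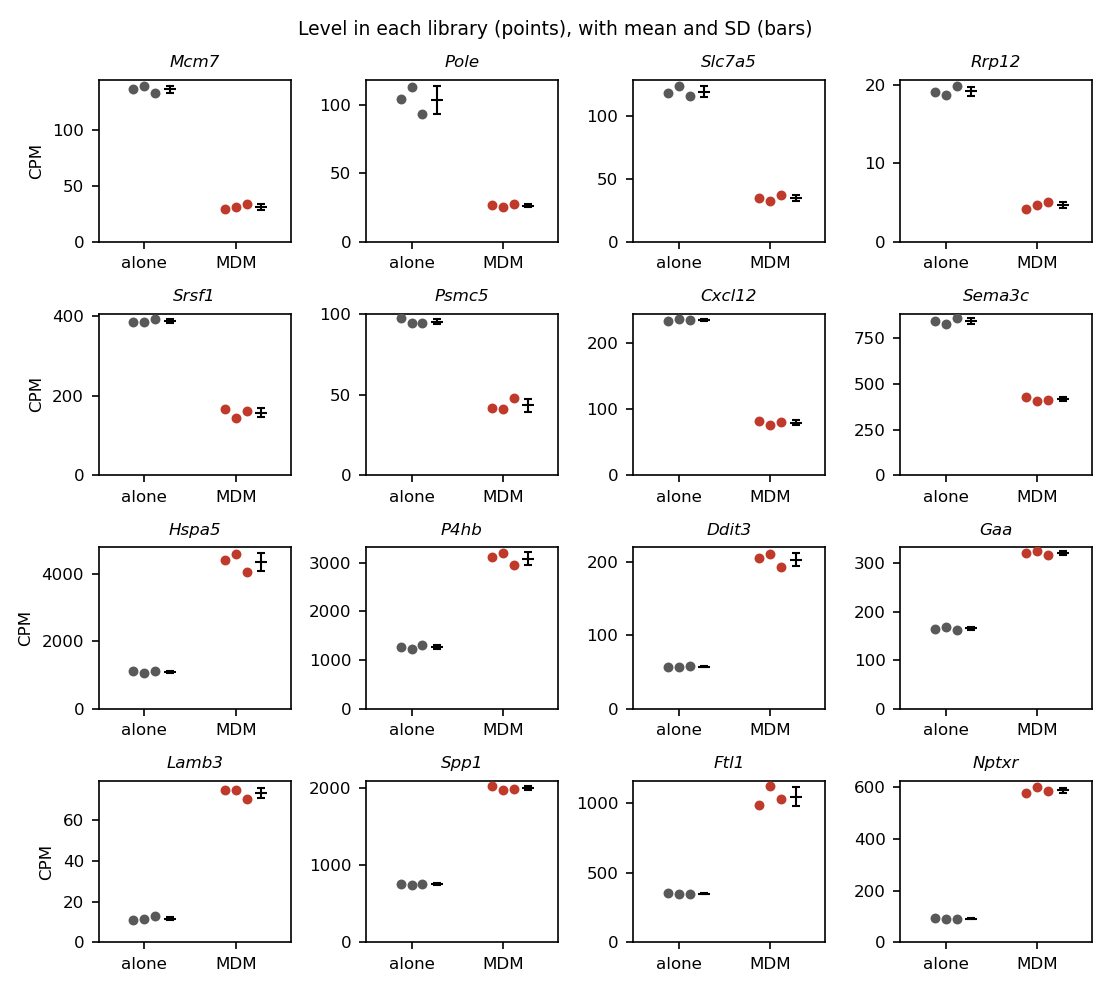
Level in CPM (vertical axis, from 0) of 16 genes in each library of cells alone (grey points) and MDM co-culture (red points), with bars at mean ± SD of 3 libraries. The genes were picked among called ones, and the groups do not overlap for any of them, as for 8515 of 12360 genes tested. In co-culture 8 were lower, such as Mcm7 and Slc7a5, and 8 were higher, such as Hspa5 and Nptxr.

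In each of the 6 matrix lists more genes rose than fell. Of 26 tested genes of fibrillar collagens and their processing 20 rose and 4 fell (median 0.56). Col1a1, a chain of type I collagen, stood at 17.6, 16.7 and 16.4 CPM in cells alone and 72.6, 74.6 and 73.9 CPM in MDM co-culture (2.12 ± 0.07). Col1a2, its partner chain, is listed at 0 in the 6 libraries, as are genes that every cell uses, and nothing is read from it. P4ha1 and P4ha2, the hydroxylase subunits that stabilise the collagen helix, rose 2.48-fold and 2.38-fold, and Plod2, which modifies lysines for cross-linking, went from 566 ± 26.4 to 1061 ± 45.5 CPM. Col5a2 and Loxl4, a fibril chain and a cross-linking oxidase, fell, with changes of -0.37 ± 0.05 and -0.56 ± 0.07.

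The basement membrane is the sheet that Schwann cells lay down around themselves. Of 16 tested genes 12 rose and 1 fell (median 0.51). Lamb3, the beta chain of laminin-332, stood at 11.03, 11.3 and 12.7 CPM in cells alone and 74.9, 74.6 and 70.1 CPM in MDM co-culture (2.65 ± 0.07; edgeR, adjusted p = 1.31e-16), while Lama3, the alpha chain of the same laminin, changed by -0.25 ± 0.06. Lamb1 and Lama5 of other laminins changed by 0.80 ± 0.04 and 0.87 ± 0.05, and Col18a1, a basement membrane collagen, rose 2.01-fold. Among matricellular and elastic fibre genes 14 of 21 rose and 4 fell. Spp1, osteopontin, stood at 759.98, 745 and 758 CPM in cells alone and 2026, 1975 and 1979 CPM in MDM co-culture (1.40 ± 0.05). The latent TGF-beta binding proteins divided: Ltbp2 and Ltbp3 rose 2.51-fold and 2.21-fold, and the more abundant Ltbp1 went from 849 ± 11.6 to 605 ± 12.2 CPM.

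Proteoglycans and the enzymes that remodel them also moved. Of 26 tested genes 19 rose and 4 fell. Chst11, which sulfates chondroitin, stood at 2.44, 2.75 and 2.396 CPM in cells alone and 18.2, 18.3 and 20.02 CPM in MDM co-culture (2.89 ± 0.10). Sulf2, which removes sulfate from heparan chains outside the cell, had 0 counts over the 3 libraries of cells alone and 136 in co-culture, at least 45.02-fold higher taking 3 counts over the 3 libraries as the floor, while its relative Sulf1 went from 113 ± 6.22 to 79.7 ± 3.74 CPM (-0.51 ± 0.05). Such floors cover counting error only. For metalloproteinases, ADAMTS enzymes and their inhibitors 15 of 26 rose and 7 fell. Mmp13, a collagenase, stood at 141, 139.8 and 165 CPM in cells alone and 568, 503 and 535 CPM in MDM co-culture (1.85 ± 0.07), and Mmp9, a gelatinase at low level, rose 3.21-fold to 5.91 ± 0.0224 CPM. Adam19 and Adam17, membrane sheddases, changed by -0.71 ± 0.06 and -0.48 ± 0.05. Of 23 genes of plasminogen, serpins and coagulation 10 rose, 8 fell and 5 were not called (median 0.04), and Plat, the tissue plasminogen activator, rose from 8.02 ± 0.604 to 28.1 ± 0.303 CPM.

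Adhesion and the cytoskeleton divided. Of 25 tested genes of integrins and focal adhesions 14 rose and 6 fell. Itgb5, a vitronectin-binding beta chain, went from 219.5 ± 3.96 to 399 ± 13.1 CPM, and Itga1, of a collagen receptor, rose 2.22-fold, while Parva, which links integrins to actin, changed by -0.48 ± 0.04. Of 27 actin and SRF target genes 5 rose and 16 fell. Actb, beta-actin, stood at 2807, 2768 and 2536 CPM in cells alone and 1529, 1625 and 1587 CPM in MDM co-culture (-0.77 ± 0.05), and Flna, which cross-links actin filaments, fell 1.65-fold.

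Secreted signals and their feedback genes changed in several families. Of 23 tested TGF-beta, activin and BMP ligands and receptors 13 rose and 4 fell. Among ligands, Inhba, the activin A subunit, changed by 0.91 ± 0.08 and Tgfb2 by 0.84 ± 0.14. Fstl3, which binds activin, stood at 35.9, 34.6 and 39.5 CPM in cells alone and 114, 122 and 112 CPM in MDM co-culture (1.66 ± 0.05), while Fst, its relative, changed by -0.75 ± 0.07. Tgfbr2, the type II TGF-beta receptor, fell 1.49-fold. Of 24 feedback and target genes 17 rose and 4 fell. Pmepa1, which holds back SMAD proteins, had 0 counts in cells alone and 249 in co-culture, at least 82.4-fold higher against the same floor, and Skil, a SMAD corepressor, rose 1.95-fold. The letters CAGACA of a SMAD box were in 0 of 17 matched windows of that list, a count that speaks only of these letters and windows, and in 15.8% of tested genes.

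In the Notch, WNT and growth factor lists more genes rose than fell. Of 21 tested Notch and hedgehog genes 12 rose, 6 by 2-fold or more, and 4 fell. Notch4, a receptor, stood at 4.38, 4.18 and 4.42 CPM in cells alone and 18.1, 19.5 and 16.5 CPM in MDM co-culture (2.06 ± 0.12), Hes1, a Notch-induced repressor, rose 2.72-fold to 3.83 ± 0.462 CPM, and Notch2, a more abundant receptor, went from 165 ± 12.05 to 120.01 ± 2.72 CPM. Dhh, the hedgehog ligand of Schwann cells, stood at 7.96, 8.11 and 7.13 CPM in cells alone and 16.9, 16.9 and 17.7 CPM in MDM co-culture. In the WNT pathway 15 of 27 rose and 4 fell, and the feedback genes split, with Axin2 at -0.75 ± 0.06 and Kremen1 at 0.62 ± 0.05. Of 25 genes of the FGF, PDGF, VEGF and HGF systems 15 rose and 5 fell. Pgf, placental growth factor, stood at 2.39, 2.45 and 2.72 CPM in cells alone and 11.5, 12.7 and 11.5 CPM in MDM co-culture (2.24 ± 0.11), Vegfc rose 1.73-fold, and Met, the HGF receptor, changed by -0.55 ± 0.05. Fgf2 stood at 3.18, 3.42 and 2.88 CPM in cells alone and 3.46, 3.01 and 3.22 CPM in MDM co-culture and was not called (0.03 ± 0.16). Ereg, an EGF-family ligand, fell 2.7000-fold to 7.34 ± 0.175 CPM.

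Feedback genes of growth factor signalling and the insulin-like growth factor (IGF) system moved in both directions. ERK kinases are held in check by phosphatases and Sprouty proteins, and of 24 tested feedback genes 10 rose and 5 fell. The share called, 62.5%, was near the 65.1% of all genes tested. Dusp5, a nuclear ERK phosphatase, stood at 322, 334 and 339 CPM in cells alone and 564, 599.5 and 534 CPM in MDM co-culture (0.77 ± 0.05), and Spry2 and Spry4, both Sprouty genes, changed by -0.51 ± 0.05 and 0.65 ± 0.07. Of 13 EGF ligands and ErbB receptors 8 rose and 2 fell, and Nrg1, the neuregulin that Schwann cells depend on, went from 4.49 ± 0.497 to 7.34 ± 0.876 CPM. In the IGF system 8 of 16 rose and 6 fell. The stanniocalcins, which block IGF-freeing proteases, moved apart: Stc1 stood at 94.1, 90.7 and 101 CPM in cells alone and 229, 241 and 219.7 CPM in MDM co-culture (1.27 ± 0.05) and Stc2 went from 43.9 ± 0.406 to 22.4 ± 2.01 CPM (-0.98 ± 0.07). Igf2bp1 and Igf2bp3, RNA-binding proteins of growing cells, changed by -0.69 ± 0.05 and -0.67 ± 0.05. Igfbp6, a secreted IGF binder, rose 1.88-fold.

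Of 26 tested immediate early factors 18 rose and 5 fell. Egr1 stood at 110.1, 105 and 108 CPM in cells alone and 259.6, 266 and 254 CPM in MDM co-culture (1.27 ± 0.04), Jund, an AP-1 subunit, rose 2.12-fold, and Fosl1, another, went from 234 ± 4.12 to 153 ± 13.3 CPM. Of 18 clock genes 11 rose and 4 fell. Dbp, an output gene of the clock, went from 19.3 ± 0.255 to 38.98 ± 2.14 CPM and Per1, a repressor in its core, from 19.96 ± 1.71 to 36.5 ± 0.149 CPM, while Ciart, another repressor, changed by -1.54 ± 0.18. Of 15 retinoid genes 8 rose, 2 fell and 5 were not called. Dhrs3, which returns retinaldehyde to retinol, stood at 1.65, 1.63 and 1.54 CPM in cells alone and 15.9, 14.99 and 16.8 CPM in MDM co-culture (3.30 ± 0.14; edgeR, adjusted p = 8.57e-14), and Tgm2, a transglutaminase that retinoic acid induces, rose 3.95-fold. Dhrs9, an enzyme that works toward retinaldehyde, went from 347 ± 5.65 to 137 ± 2.74 CPM.

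Chemokine genes mostly fell. Of 10 tested chemokines and receptors 1 rose and 6 fell. Cxcl12, which attracts cells with the receptor Cxcr4, stood at 234, 236 and 234 CPM in cells alone and 82.1, 75.1 and 80.3 CPM in MDM co-culture (-1.57 ± 0.04), and Ccl2, which attracts monocytes, at 98.9, 97.5 and 99.3 CPM in cells alone and 55.1, 44.9 and 62.4 CPM in MDM co-culture (-0.86 ± 0.08). The neutrophil chemokine Cxcl1 went from 232 ± 19.7 to 81.9 ± 2.14 CPM. The member that rose, Cxcl11, reached only 0.553 ± 0.0343 CPM. Among interleukins, colony-stimulating factors and the TNF family 7 of 29 rose and 14 fell. Il10, an anti-inflammatory cytokine, stood at 9.55, 10.4 and 10.9 CPM in cells alone and 1.44, 1.76 and 2.19 CPM in MDM co-culture (-2.49 ± 0.16), Csf1, the macrophage growth factor, went from 185 ± 2.17 to 119 ± 4.09 CPM, and Csf2, also called GM-CSF, rose 5.24-fold to 3.92 ± 0.628 CPM. Of 27 NF-kappaB subunits and feedback genes 7 rose, 6 fell and 14 were not called, and which count was larger turned when 1 library of cells alone was left out. Nfkbia and Tnfaip3, feedback inhibitors, changed by -0.62 ± 0.06 and -0.63 ± 0.08.

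More antigen presentation genes rose than fell, and the interferon list divided much as all genes tested did. Of 24 tested presentation genes 14 rose and 5 fell. B2m, the light chain of class I, stood at 1148, 1157 and 1300.5 CPM in cells alone and 1829.9, 1976 and 1845 CPM in MDM co-culture (0.65 ± 0.05). At low level, the class II genes RT1-Bb and RT1-Ba went from 0.98 ± 0.136 to 2.92 ± 0.23 CPM and from 8.48 ± 0.549 to 16.7 ± 0.801 CPM, and their chaperone Cd74 from 0.963 ± 0.0555 to 2.105 ± 0.0786 CPM. RT1, Cxcl and Clca genes share reads with close copies, so these families are uncertain, as are genes overlapping others on the opposite strand, because no source used here states whether counting used the strand. Of 43 interferon genes 15 rose and 16 fell, close to the shares of all genes tested (32.0% higher and 33.1% lower), so the list did not stand out. This split became 15 and 13 with upper-quartile scaling. Gbp2, a guanylate-binding protein, fell 2.26-fold from 187 ± 1.93 CPM, and Oasl, an antiviral synthetase relative, rose 2.28-fold to 74.3 ± 5.64 CPM.

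Genes of myelin and the Schwann lineage moved in both directions. Of 20 tested genes 9 rose and 6 fell (median 0.13). The share called was 75%, against 65.1% of all genes tested, of which 32.0% were higher and 33.1% lower. The list as a whole is not read as a rise. Ncam1, an adhesion molecule of immature and repair Schwann cells, stood at 114, 101 and 107 CPM in cells alone and 186, 215 and 188 CPM in MDM co-culture (0.87 ± 0.06). The neuregulin receptor gene Erbb3 changed by 0.87 ± 0.12. Ngfr, the low-affinity neurotrophin receptor, went from 0.427 ± 0.229 to 2.16 ± 0.692 CPM. Falls were seen in Pmp22, a myelin protein, at -0.31 ± 0.04, and in Gfap, a filament of glia, from 2.84 ± 0.171 to 1.22 ± 0.222 CPM.

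Of 20 synaptic and neuronal genes 9 rose, 2 fell and 9 were not called. Nptxr, a receptor of neuronal pentraxins, stood at 94.6, 91.4 and 88.9 CPM in cells alone and 579, 599 and 587 CPM in MDM co-culture (2.68 ± 0.05; edgeR, adjusted p = 2.18e-19), and Mapt, the axonal protein tau, at 6.08, 4.64 and 6.39 CPM in cells alone and 25.5, 22.4 and 28.7 CPM in MDM co-culture (2.17 ± 0.11). In axon guidance 25 of 42 rose and 6 fell. Sema7a, a membrane-bound semaphorin, went from 8.18 ± 0.0854 to 24.6 ± 0.53 CPM, Unc5b, a netrin receptor, changed by 0.78 ± 0.05, and Sema3c, a secreted semaphorin, stood at 846, 829.6 and 863 CPM in cells alone and 429.5, 409 and 410.1 CPM in MDM co-culture (-1.02 ± 0.04). Among ion channels and pumps 14 of 24 rose and 7 fell, and Ano6, a calcium-gated lipid scramblase and channel, stood at 534, 527 and 499 CPM in cells alone and 159, 271 and 286 CPM in MDM co-culture (-1.12 ± 0.15). Of 12 neurotrophic factors and receptors 6 rose, 1 fell and 5 were not called, with Sort1, a sorting receptor of neurotrophin precursors, at 0.90 ± 0.05.

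In glycolysis 12 of 22 tested genes rose and 5 fell. Aldoa, an aldolase, stood at 2189.8, 2248 and 2223 CPM in cells alone and 3674, 3962 and 3791 CPM in MDM co-culture (0.78 ± 0.04), and Eno2, an enolase, rose 2.49-fold. Of 20 hypoxia targets outside glycolysis 13 rose and 5 fell, and Car9, a carbonic anhydrase, went from 415 ± 5.76 to 832 ± 28.3 CPM. In the citric acid cycle 7 of 26 rose and 14 fell, with Pc, pyruvate carboxylase, at 0.92 ± 0.05 and Ogdh, a dehydrogenase of the cycle, at -0.55 ± 0.05. For cholesterol synthesis and uptake 14 of 26 rose and 7 fell. Insig1, which retains the sterol sensor in the ER, stood at 228, 223 and 249 CPM in cells alone and 477, 484 and 455 CPM in MDM co-culture (1.02 ± 0.04). Of 21 iron and heme genes 10 rose, 5 fell and 6 were not called. Ftl1, the ferritin light chain, stood at 351, 348 and 348 CPM in cells alone and 984, 1117 and 1028 CPM in MDM co-culture, Tfrc, the transferrin receptor, rose 2.03-fold, and Fth1, the ferritin heavy chain, went from 1029 ± 18.7 to 847 ± 48.4 CPM. In polyamine metabolism 8 of 17 rose and 8 fell, with Odc1, the entry enzyme, at -1.03 ± 0.04 and Sat1, the acetylase that starts breakdown, at 1.46 ± 0.07.

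Respiratory chain genes of the nucleus stayed near their level, and those of the mitochondrial chromosome did not. Of 33 tested nuclear subunits 9 rose, 8 fell and 16 were not called (median 0.01), numbers close enough that the larger turned in other fits. Of 11 tested genes in the mitochondrial list 1 rose and 10 fell (median -0.74). Mt-nd4, a complex I subunit, stood at 1339, 1285 and 1414 CPM in cells alone and 619, 659 and 698 CPM in MDM co-culture (-1.03 ± 0.05). Mt-co1, of complex IV and the most abundant member, stood at 20184, 19419 and 20197 CPM in cells alone and 26362, 29138 and 27959 CPM in MDM co-culture (0.48 ± 0.05). Mt-atp6, of the ATP synthase, stood at 4455, 914 and 989.6 CPM in cells alone and 683, 737 and 689 CPM in MDM co-culture, so that 1 library of cells alone was far above the other two, and its change of -1.59 ± 0.36 became -0.43 without that library (edgeR, adjusted p = 1.17e-06). The list's median was -0.61 without it. The 2 further entries on this chromosome that follow carry no description in the table and were picked after their values were seen. Whether they encode proteins is not given, they need not be respiratory chain genes, and nothing is concluded from their rise. AY172581.24, at positions 1094 to 2664 of the mitochondrial chromosome in Rnor_6.0, stood at 773, 732 and 921 CPM in cells alone and 3664, 4021 and 3463 CPM in MDM co-culture (2.20 ± 0.08), and AY172581.9, at 68 to 1025, at 848, 809.7 and 1003 CPM in cells alone and 2881, 3134 and 2787 CPM in MDM co-culture (1.73 ± 0.07).

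Set against the mean of both TAM co-cultures in the same fit, MDM co-culture differed in 5040 genes (40.8%), higher in 2591 (21.0%) and lower in 2449 (19.8%). This contrast shares the MDM libraries with that against cells alone, so that neither supports the other, and levels in all groups are set side by side. The lists of division genes gave different counts. Of 29 genes of mitotic entry, spindle and cytokinesis 28 were higher in MDM than in TAM co-culture and 0 lower (median difference 0.68), and of 25 kinetochore genes 22 were higher and 1 lower. Ccna2, the cyclin of S phase and G2, stood at 124, 123 and 118 CPM in cells alone, 63.4, 64.6 and 63.1 in MDM, 24.1, 26.5 and 25.3 in BxTAM and 25.6, 23.6 and 27.9 in MiaTAM co-culture (MDM minus TAM mean 1.32 ± 0.05). Of 25 origin and helicase genes, 6 were higher and 10 lower than in TAM co-culture (median difference -0.09). Mcm3 stood at 28.9 ± 0.945 CPM in MDM, 40.9 ± 1.795 in BxTAM and 44.7 ± 1.63 in MiaTAM co-culture (-0.56 ± 0.05; edgeR, adjusted p = 5.23e-09). Mki67 stood at 569 ± 24.95, 325 ± 15.02 and 279 ± 16.2 CPM in the same order (0.92 ± 0.04).

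The secretory and inflammatory genes also differed from the TAM co-cultures. Of 26 ER chaperone genes 21 were higher and 1 lower in MDM co-culture, and of 20 hypoxia targets 18 were higher and 1 lower. Hspa5 stood at 4415, 4585 and 4067 CPM in MDM, 1933, 1855 and 2034 in BxTAM and 1663, 1463 and 1627 in MiaTAM co-culture (1.31 ± 0.04; edgeR, adjusted p = 4.39e-15). Nptxr stood at 588 ± 10.5, 170.3 ± 7.51 and 203 ± 12.3 CPM and Dhrs3 at 15.9 ± 0.881, 3.42 ± 0.364 and 3.51 ± 0.857 CPM in the same order. Egr1 was at 260.02 ± 5.81 CPM in MDM co-culture, above 90.2 ± 3.09 and 101 ± 3.99 CPM in the TAM co-cultures and 107 ± 2.66 CPM in cells alone. In the other direction, of 29 interleukin, colony-stimulating factor and TNF family genes 2 were higher and 19 lower in MDM than in TAM co-culture, and of 27 NF-kappaB genes 1 and 17.

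Several cytokine genes that fell in MDM co-culture stood higher in both TAM co-cultures. Il10 stood at 9.55, 10.4 and 10.9 CPM alone, 1.44, 1.76 and 2.19 in MDM, 9.71, 9.66 and 12.4 in BxTAM and 10.2, 7.83 and 7.97 in MiaTAM co-culture (MDM minus TAM mean -2.39 ± 0.15; edgeR, adjusted p = 1.03e-10). Il33, a nuclear alarmin, stood at 219.6 ± 7.601 CPM alone, 111 ± 1.99 in MDM, 341 ± 17.1 in BxTAM and 309.5 ± 16.6 in MiaTAM co-culture. Csf3, the granulocyte growth factor, followed the same order at 84.3 ± 2.38, 47.7 ± 4.396, 126 ± 6.05 and 105 ± 10.3 CPM. For Il10, Il33 and Csf3 the 3 MDM libraries lay below those of every other group. Nt5e, an enzyme that makes adenosine outside the cell, rose in MDM co-culture from 3.14 ± 0.108 to 5.63 ± 0.933 CPM and stood higher still in BxTAM and MiaTAM co-culture, at 15.6 ± 1.75 and 14.2 ± 0.782 CPM.

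**Figure D4:**
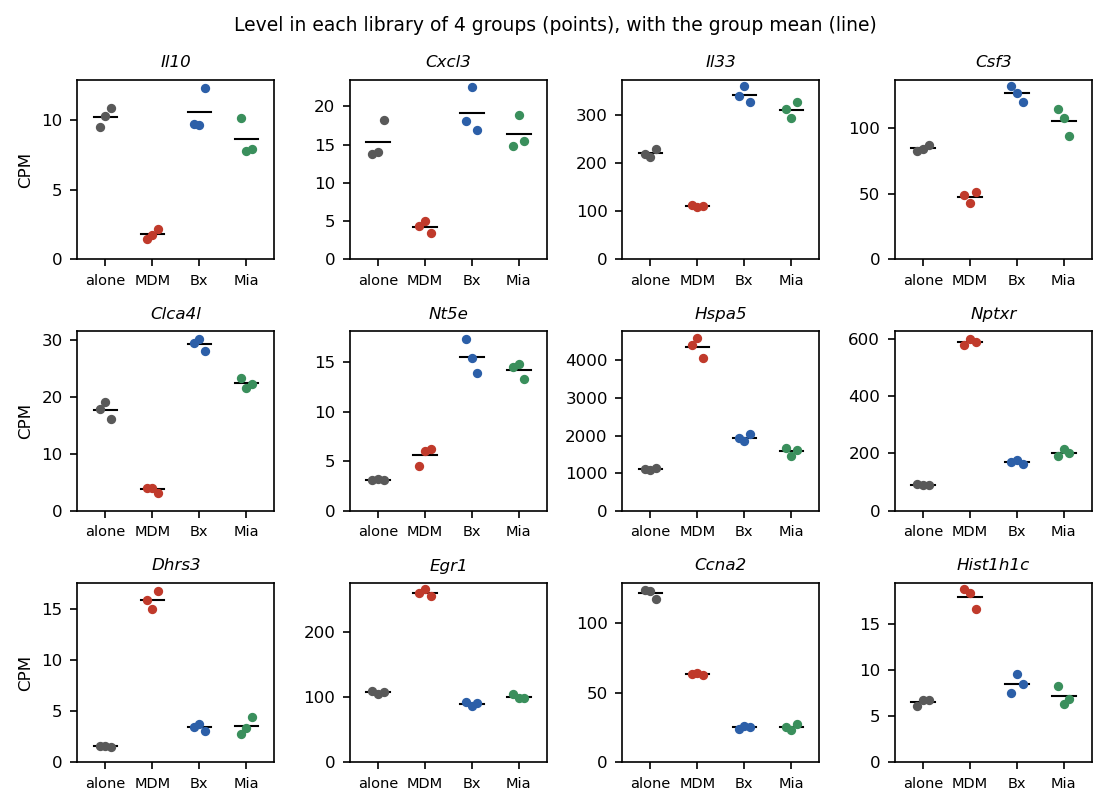
Level in CPM (vertical axis, from 0) of 12 genes in each library of cells alone, MDM, BxTAM (Bx) and MiaTAM (Mia) co-culture; each point is a library and each line a group mean. Il10, Cxcl3, Il33, Csf3 and Clca4l are lowest in the MDM libraries, Hspa5, Nptxr, Dhrs3, Egr1 and Hist1h1c are highest there, and Nt5e and Ccna2 lie between cells alone and the TAM co-cultures.

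Promoter motifs were also counted for other lists and for the genes called at 2-fold or more. The AP-1 letters TGANTCA were in 10.1% of windows of genes called higher, 3.83% of those called lower, 4.96% of tested genes and 5 of 21 matched genes of metalloproteinases, ADAMTS and TIMPs. The cyclic AMP response element TGACGTCA was in 4.12%, 3.45% and 3.39% of the same sets and in 3 of 17 immediate early genes. The TEAD letters GGAATG were in 11.6%, 11.5% and 10.9%, and in 5 of 13 YAP and TEAD targets, a list in which 11 of 24 genes rose and 10 fell and the larger count turned in other fits. The CArG box, read by SRF, was in 105 of 8062 tested genes, in 2.84% of genes called higher, in 3.07% of genes called lower and in 3 of 19 actin and SRF targets.

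**Figure D5:**
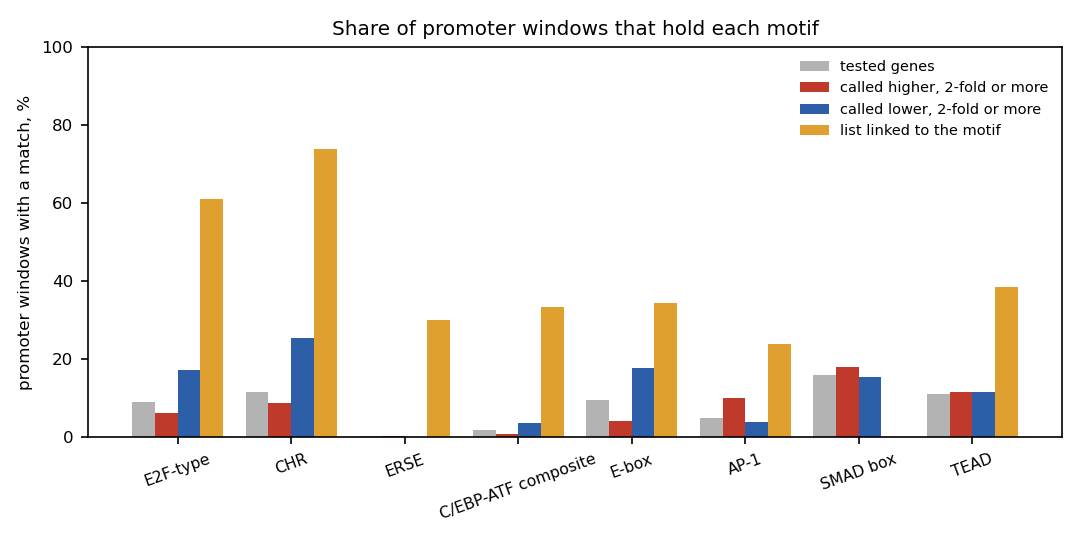
Share of promoter windows, in percent (vertical axis, from 0), that hold each of 8 motifs (horizontal axis) among tested genes, genes called higher and genes called lower at 2-fold or more in MDM co-culture, and the list linked to each motif. E2F-type and CHR matches are in 61.1% and 73.9% of their lists and in 8.83% and 11.6% of tested genes; the SMAD box has no match in its list.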

How the data were processed

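Messenger RNA of 12 libraries was sequenced with a stranded mRNA kit after column extraction, per the labels' protocols. The submitters' processing notes name CASAVA, HISAT2, StringTie 1.3.0 and Rnor_6.0, and no source used here gives the strand setting or annotation release. The authors deposited raw read counts per gene and, beside them, FPKM, fragments per gene length and library size. Counts were the basis of the tests here, and FPKM served for level classes and for an alternative.

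Library totals of the 12 libraries were summed from the counts, and CPM were computed with TMM factors in edgeR 4.0.16 (R 4.3.3). All 12 libraries were fitted together with 1 mean per group and no covariate, after filterByExpr, and 12360 genes were tested by the quasi-likelihood test with Benjamini-Hochberg adjustment, called under 0.05. In counts simulated from these libraries, 35 of 50 genes changed 1.25-fold, 47 of 50 changed 1.5-fold and all 50 changed 2-fold were recovered, and 5 of 12068 unchanged genes were called. The simulation gave every gene the same spread setting, changed only a small set of genes with enough counts and kept all others equal between groups. In the data 65.1% of genes were called, so these rates need not carry over. Within each group no library duplicated another, and pairs from different groups were not checked for this. DESeq2 1.42.0, limma 3.58.1 and other scalings, filters and subsets of libraries were tried as alternatives.

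The comparison and the 77 gene lists were chosen with earlier results of these data known, and list counts of the contrast with TAM co-culture were added after seeing the data. Of the list symbols, 1981 matched the table by name, 9 by a RefSeq synonym and 54 were not found. Named genes came from a fixed rule: the 25 largest rises and falls at 1 CPM or more without overlap, the 12 largest in CPM at 1.5-fold or more, the smallest p-values and largest changes of each list, a few marker genes, and the 10 most different from TAM co-culture in each direction. Smc2, shown for its promoter, AY172581.24 and AY172581.9 fall outside it.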

Additional observations from a re-analysis of the deposited data

How the results depend on the processing

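No gene named with a change reversed its direction under the alternatives run. The call counts were 8039 with the 6 libraries alone, 8057 with DESeq2 size factors, 7554 by DESeq2's Wald test and 7912 by limma on log2(FPKM + 1). Testing for a change of at least 1.2-fold left 4468 called genes, 2174 higher and 2294 lower, as fewer small changes pass such a test. On the log2(FPKM + 1) scale 392 genes reached 2-fold, 137 higher and 255 lower, and without a filter 395, 139 higher and 256 lower, since the added 1 FPKM shrinks changes of low genes. Leaving out each library in turn gave 7448 to 7633 calls, 3638 to 3796 higher and 3754 to 3884 lower, with 626 to 671 higher and 414 to 439 lower at 2-fold, and 4067 to 5097 for the contrast with TAM co-culture. With upper-quartile scaling 4579 genes were higher and 3497 lower. Replicate numbers did not pair the samples (correlations of same-numbered deviations 0.0176, 0.00171 and 0.0173), and a fit with the replicate number as a block called 8046 genes, 3945 higher and 4101 lower, and 5032 in the contrast with TAM co-culture. Genes that every cell uses are among those listed at 0 in all 12 libraries, so nothing is read from such a 0. Mt-atp6 missed the threshold by limma on log2(FPKM + 1) without a filter (adjusted p = 0.0613).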
